A study of Mus musculus with 24 samples.

Results

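The TFEB KO of B16-F10 mouse melanoma cells was compared with the parental cells, using the 3 libraries of each line, which are 6 of the 24 libraries of the series, and all 12010 genes of the table. Both lines carried a luciferase reporter (B16F10-luc2) and were grown in serum-containing DMEM. The TFEB KO was made with a CRISPR-Cas9 ribonucleoprotein and grown from single cells, so that the line is 1 clone. The other 18 libraries came from the TFE3 KO, the MITF KO, the TFEB/TFE3 double KO (DKO), the MITF/TFE3 DKO, the MITF/TFEB DKO and the triple KO (TKO), with 3 libraries of each, all in the same reporter cells, and the MITF KO was a line made earlier. The sources used here do not state whether a DKO was made from the TFEB KO clone, nor whether replicate libraries came from separate cultures, so that p-values measure the spread between these libraries. The values are counts of 3′ end reads normalized for library size (CPM) and scaled by the TMM method, and a log2 fold change is the TFEB KO minus the parental cells on the scale log2(CPM + 1), on which the change of a gene with few reads looks smaller than it is.

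TFEB belongs with MITF, TFE3 and TFEC to a family of helix-loop-helix factors that bind E-box DNA. In nutrient-rich cells the Rag GTPases bring TFEB to the lysosome, where mTORC1 phosphorylates it and keeps it in the cytoplasm. On starvation or lysosomal stress it enters the nucleus, and it is best known for the transcription of genes of lysosomes and autophagy. In melanocytes and melanomas MITF is the lineage factor of the family and drives pigment genes.

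Between 20034773 and 23635288 reads on genes were counted in each of the 6 libraries. The spread within lines was not random: the first component of the deviations from the line means held 51.5% of the variance within lines over 9539 genes with a mean of at least 5 CPM. TFEB KO replicate 2 scored 0.375 on it and the other TFEB KO libraries −0.238 and −0.137, and parental replicate 3 scored 0.195 against −0.0748 and −0.1205. Where a count of genes or list members against the parental cells was another without both of these libraries, that count is given too. The melanocyte lineage markers matched the label of both lines, as all 7 were measured with a summed level of 26134 to 26953 CPM in the parental libraries and 26229 to 29015 CPM in the TFEB KO, and none of the 7 passed the test. Of 8 leukocyte markers 2 were in the table, with a summed level of 0.225 to 1.77 CPM in the parental libraries and 0.319 to 1.34 CPM in the TFEB KO, and Ptprc, the pan-leukocyte gene, was not in the table. Of 7 fibroblast markers 2 were measured, with summed levels of 9.73 to 12.5 and 15.3 to 16.9 CPM, and Col1a2 was higher. Of 6 endothelial and epithelial markers 2 were measured, with summed levels of 7.73 to 8.59 and 10.9 to 17.6 CPM, and Pecam1 was higher by 0.75. The part of these cell types in the results below was not tested.

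Tfeb RNA was measured at 8.2, 7.87 and 10.3 CPM in the parental cells and at 3.67, 2.06 and 2.92 CPM in the TFEB KO, a change of −1.35 ± 0.18 (SE; adjusted p = 2.53e-05, limma with Benjamini-Hochberg adjustment over all genes). The lines did not overlap, part of the RNA remained, and reads from the 3′ end do not show the edit itself. Neither Tfe3 (−0.06, 95% interval −0.39 to 0.27) nor Mitf (0.03, −0.16 to 0.23) passed the test, and Tfec was not among the genes of the table.

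Genes were called with an unadjusted p under 0.05 where the fold change was 2 or more. In the TFEB KO 23 genes were upregulated and 71 downregulated, which are 0.192% and 0.591% of the genes tested. For all 94 of them the TFEB KO libraries lay outside the range of the parental ones, as they did for 10.4% of all genes with the TFEB KO higher and for 9.62% with it lower. The genes were called on these same libraries, so that the lack of overlap is no separate support. The same holds for genes named below by their adjusted p. At an adjusted p under 0.05 with no limit of fold, 270 genes were higher (2.25%) and 311 lower (2.59%). These last counts moved with the libraries left out: 157, 179 and 164 genes were higher without parental replicate 1, 2 or 3 and 204, 261 and 143 without TFEB KO replicate 1, 2 or 3, and between 215 and 315 were lower. Without both libraries that lay apart, 34 genes were upregulated, 77 downregulated, 135 higher and 191 lower.

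**Figure D1:**
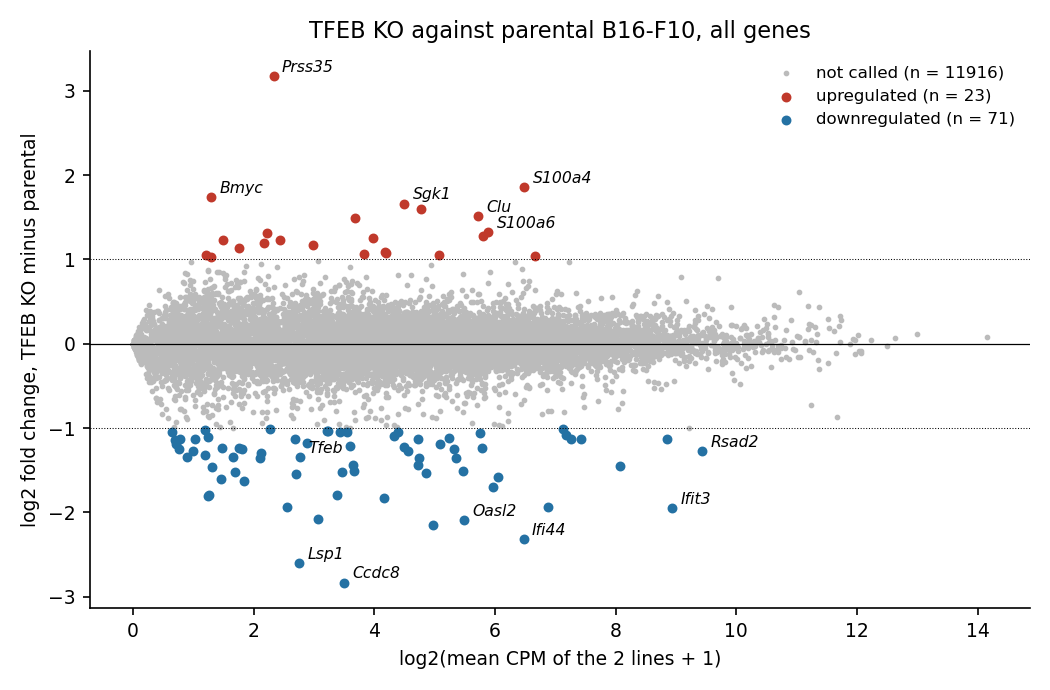
Each point is 1 of 12010 genes; the x axis is log2 of the mean CPM of both lines plus 1, and the y axis the log2 fold change of the TFEB KO against the parental cells, with dotted lines at a fold change of 2. The 23 upregulated genes are red and the 71 downregulated blue, and the blue points at the right, from Ifi44 to Rsad2, are interferon response genes with high read counts.

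The most frequent kind of downregulated gene was one that cells switch on in answer to interferon. Of the 71 downregulated genes, 22 stood on a list of 51 measured interferon-stimulated genes, and 42 stood on that list or belonged to interferon-inducible families by name (Slfn, Gbp, Irgm, Ifi200, Trim and related genes), the latter list being drawn up after the values had been seen. Interferons bind receptors at the cell surface, JAK kinases then phosphorylate transcription factors such as STAT2, and these enter the nucleus with IRF9 and bind a DNA motif, the interferon-stimulated response element, beside their targets. The core of that motif, GAAA followed after any 2 bases by a second GAAA, was looked for on both strands in the 250 bases before the start sites of RefSeq (several for some genes, build GRCm38.p6). Of the 71 downregulated genes 53 had a promoter in that table and 21 of these (39.6%) held the core, against 2 of the 16 upregulated genes with a promoter and 290 of the 9647 genes of the table with a promoter (3.01%). Among all 32851 promoters the share was 2.98%. The core was not found before 32 of the 53 downregulated genes, Ifi44 and Oasl2 among them. The 5 promoters here were chosen among those with the core, to show where it lies before genes that fell; each is the 160 bases before the start site, 5′ to 3′ on the gene's strand, with matches to the core or its reverse complement in capitals.
Ifit3: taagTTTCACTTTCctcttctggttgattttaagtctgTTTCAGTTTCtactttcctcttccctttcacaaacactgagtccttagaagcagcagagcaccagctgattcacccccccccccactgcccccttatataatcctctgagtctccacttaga
Rsad2: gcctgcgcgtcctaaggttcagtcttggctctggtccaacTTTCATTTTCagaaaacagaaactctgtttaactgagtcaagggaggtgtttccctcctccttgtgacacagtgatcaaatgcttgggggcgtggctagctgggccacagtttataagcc
Isg15: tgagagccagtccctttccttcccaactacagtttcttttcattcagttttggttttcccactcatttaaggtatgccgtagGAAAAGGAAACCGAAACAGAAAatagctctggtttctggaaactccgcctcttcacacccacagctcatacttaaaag
Gbp2: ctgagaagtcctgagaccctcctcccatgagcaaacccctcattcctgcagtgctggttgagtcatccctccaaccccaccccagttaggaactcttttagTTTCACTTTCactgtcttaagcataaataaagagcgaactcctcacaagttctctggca
Ddx60: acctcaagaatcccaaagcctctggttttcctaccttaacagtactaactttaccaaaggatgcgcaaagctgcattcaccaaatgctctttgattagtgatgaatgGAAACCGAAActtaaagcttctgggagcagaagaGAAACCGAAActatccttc
On the stated strand of its own chromosome each sequence occurs at a single place in GRCm39, the build of the files, and other chromosomes were not searched. The places are chr19:34560769-34560928 (plus strand) for Ifit3, chr12:26506452-26506611 (minus) for Rsad2, chr4:156285276-156285435 (minus) for Isg15, chr3:142326264-142326423 (plus) for Gbp2 and chr8:62380961-62381120 (plus) for Ddx60. The core is found 2 times before Ifit3, from 156 to 147 and from 122 to 113 bases before the start, and 3 overlapping times before Isg15, between 78 and 57 bases. It lies from 120 to 111 bases before Rsad2, from 59 to 50 bases before Gbp2 and at 53 to 44 and 19 to 10 bases before Ddx60. The E-box CACGTG that the MITF family binds was found before 2 of the 53 downregulated genes with a promoter (3.77%) and 1 of the 16 upregulated (6.25%), against 977 of the 9647 genes (10.1%) and 6.02% of all promoters. A match is a run of letters and not a site shown to be bound. Other forms of the E-box, and DNA more than 250 bases before the start, were not searched. The study reported binding by MITF family members at many genes of an interferon alpha response set.

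Ifit3, which encodes an antiviral protein with tetratricopeptide repeats, was at 769, 796 and 766 CPM in the parental cells and at 211, 211 and 182 CPM in the TFEB KO (−1.95 ± 0.08, adjusted p = 9.16e-14, limma). The 6 libraries formed 2 tight groups that were 3.86-fold apart. Rsad2, the gene of the antiviral enzyme viperin, had 981, 966 and 989.6 CPM and then 405, 390.1 and 415 CPM (−1.28 ± 0.10, adjusted p = 8.76e-09), again with no overlap; its neighbours on chromosome 12 had a median of 0.21 in the other direction. Ifi44, an interferon-induced protein of the cytoplasm, went from 153, 138 and 151 CPM to 31.9, 27.1 and 27.3 CPM (−2.32 ± 0.11, adjusted p = 1.02e-12), the largest fall on the list on the scale log2(CPM + 1). Oasl2, related to the 2′-5′ oligoadenylate synthetases that sense double-stranded RNA, had 73.8, 69.9 and 71.9 CPM and then 15.1, 15.7 and 17.4 CPM (−2.1 ± 0.14). Isg15, a ubiquitin-like modifier, was more variable, at 528, 553 and 804 CPM and at 211, 437 and 242 CPM (−1.13 ± 0.26, adjusted p = 0.00958). Its highest library in each line was the library that lay apart, and the lines still did not overlap.

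On the whole list of 51 measured interferon-stimulated genes, 43 fell and 1 rose at an adjusted p under 0.05 (limma), where 2.59% of all genes were lower and 2.25% higher. The median log2 fold change of the list was −0.92, while that of all genes was −0.0043. Effectors that fell included Mx1 and Mx2, dynamin-like GTPases that block viral replication (−1.04 and −1.23), Ifit1 (−1.46), the exonuclease Isg20 (−1.53), Zbp1, a sensor of Z-form nucleic acid (−1.35), and Ifitm3 and Bst2, membrane proteins that hold back virus entry and release (−0.73 and −0.77). The cytoplasmic RNA sensors fell as well, with Dhx58 at −1.52, Ifih1 at −0.97 and Ddx58, which encodes RIG-I, at −0.49. Usp18, which removes ISG15 from proteins and dampens the response, had 186.5, 185.8 and 184 CPM and then 89.1, 91.4 and 94.1 CPM. Ifi27 went the other way, from 589, 616 and 626 CPM to 1022, 1068 and 1046 CPM (0.77 ± 0.08, adjusted p = 2.83e-07). In bulk libraries fewer responding cells and less RNA per cell cannot be told apart. Without both libraries that lay apart 40 of the 51 fell and 1 rose, and across all alternatives between 40 and 44 fell.

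The families of interferon-inducible GTPases and DNA-binding proteins were listed by name after the values had been seen. This list shares genes with that of the interferon-stimulated genes, Gbp2, Gbp3, Gbp7, Irgm1, Igtp and Iigp1 among them, and is no separate support. Of its 40 measured members 32 fell and none rose, with a median of −1.09, and 26 fell without both libraries that lay apart. Of all genes 2.59% were lower and 2.25% higher. The guanylate-binding proteins Gbp2, Gbp3 and Gbp7, which attack the vacuoles of pathogens, fell by 1.09, 1.51 and 1.09 on the log2 scale. The immunity-related GTPases Irgm1, Igtp and Iigp1 fell by 1.36, 1.24 and 1.70. Slfn2 had 45.6, 53.8 and 50.4 CPM and then 10.5, 9.87 and 11.1 CPM (−2.15 ± 0.21) and belongs to the Schlafen genes, which are named for their part in lymphocyte quiescence. Irgm2 met the limit of fold but not that of the adjusted p (24.2, 23.2 and 34.0 CPM against 9.37, 18.6 and 10.9 CPM, adjusted p = 0.093). Copies make some of these values uncertain: in the last 400 bases of their transcripts Ifit3 shared 14.1% of 50-base words with Ifit3b, Tgtp2 69.8% with Tgtp1, Ifi211 87.7% with Ifi205, Gbp6 68.4% with Gbp10 and Slfn8 21.1% with Slfn10. Of 91 called genes with a transcript, 22 shared at least 5% with another gene.

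The receptors of type I and type II interferon and the kinases of the pathway did not pass the test, whereas several of its transcription factors did. Ifnar1 had 25.1, 21.4 and 20.8 CPM and then 19.7, 23.8 and 18.6 CPM (−0.12, 95% interval −0.38 to 0.15), and the lines overlapped. Ifnar2 (−0.28 to 0.06), Ifngr1 (−0.36 to 0.20), Jak1 (−0.22 to 0.18) and Tyk2 (−0.19 to 0.44) had intervals that held 0, and so had the adaptors Mavs (−0.15 to 0.33) and Sting1 (−0.58 to 0.05). Stat2 fell by 0.77, Irf1 by 0.63 and Tlr3, the endosomal receptor for double-stranded RNA, by 0.84 on the log2 scale. Irf9 was at −0.38 with an adjusted p of 0.0528 (limma). Irf7, the regulator of the type I interferon genes, was at 1.51, 1.55 and 1.93 CPM in the parental cells, with at most 3 reads in a library of the TFEB KO. Ifnb1 was not among the genes of the table, and the receptor of interferon lambda, Ifnlr1, was higher at low levels (0.949, 0.364 and 0.674 CPM against 1.49, 2.65 and 1.99 CPM, adjusted p = 0.0211). On this list of 25 measured receptors and signalling genes, which was drawn up after the values had been seen, 5 fell and 1 rose, and without both libraries that lay apart 5 fell and none rose. The shares over all genes were 2.59% lower and 2.25% higher.

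Class I antigen presentation, whose genes carry peptides to the cell surface for T cells and answer to interferon, fell in part. Of 15 measured genes 9 fell and none rose (median −0.72), and 6 fell without both libraries that lay apart. By the same rule 2.59% of all genes were lower and 2.25% higher. B2m, the light chain of class I molecules, had 4335, 4507 and 3702 CPM and then 2868, 1999 and 2056 CPM (−0.87 ± 0.13, adjusted p = 7.55e-05). H2-D1, a class I heavy chain, had 145, 147 and 164 CPM and then 78.7, 113 and 73.8 CPM (−0.80 ± 0.18). The libraries of both genes did not overlap between the lines. The peptide transporter Tap1 (−0.91), its partner Tapbp (−0.81), the trimming enzyme Erap1 (−0.72), the proteasome activators Psme1 (−0.50) and Psme2 (−0.52) and Cd274, which encodes the checkpoint ligand PD-L1 (−1.0), fell as well. H2-K1 was at 1.51, 1.14 and 0.719 CPM in the parental cells, with at most 1 read in a library of the TFEB KO, and it shares up to 9.5% of its end with other class I genes. Nlrc5, the transactivator of class I genes, did not pass (−0.14, −0.41 to 0.13). With only the 6 libraries in the fit 4 of the 15 genes fell.

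**Figure D2:**
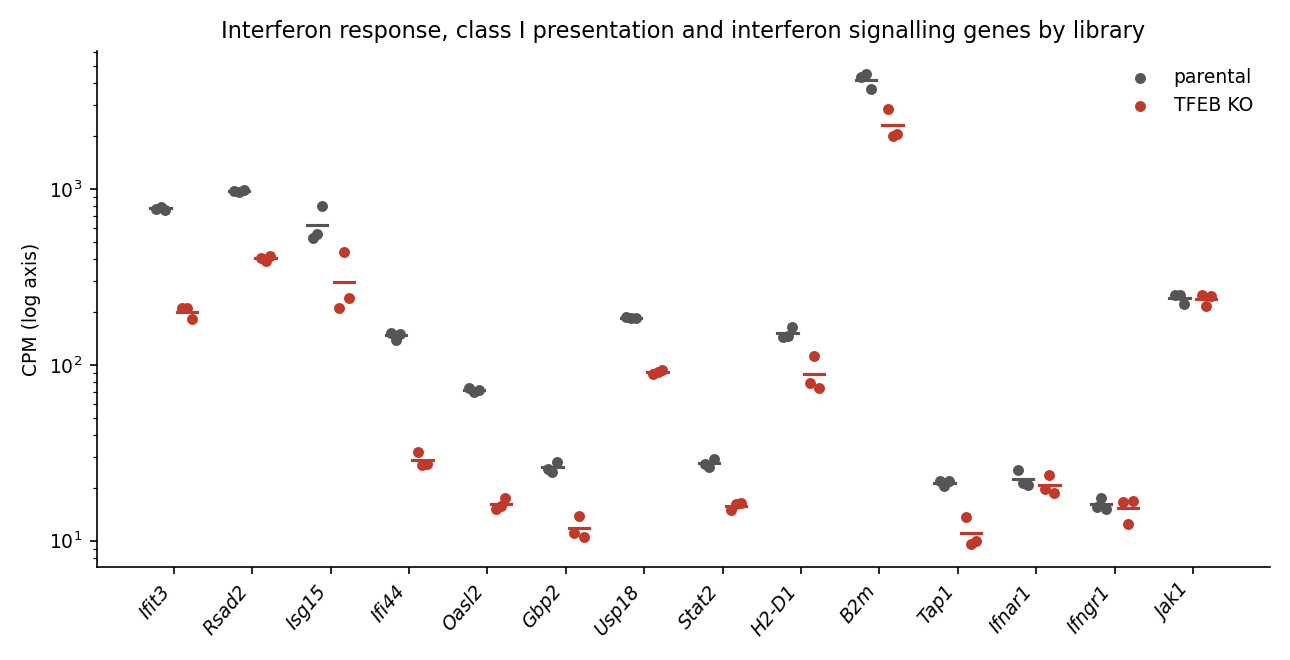
CPM on a log axis of 14 interferon response, antigen presentation and interferon signalling genes, with 1 point for each library, grey for the parental cells and red for the TFEB KO, and a bar at the mean. The points of the lines separate from Ifit3 to Tap1 and mix for Ifnar1, Ifngr1 and Jak1.

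Ccdc8, which encodes a partner of the cullin-7 complex, and Lsp1, which encodes an actin-binding protein of leukocytes, had the largest falls outside the interferon lists on the scale log2(CPM + 1); as a ratio of mean CPM, genes with few reads fell further, such as Pak3 (35.9-fold against 10.4-fold for Ccdc8 and 11.6-fold for Lsp1). Ccdc8 had 18.4, 16.8 and 21.3 CPM and then 1.17, 2.1 and 2.17 CPM (−2.83 ± 0.18), and Lsp1 8.50, 11.9 and 11.5 CPM and then 0.958, 1.19 and 0.602 CPM (−2.60 ± 0.20). The chemokine Ccl5, which draws T cells, fell from 94.7, 102.5 and 97.0 CPM to 32.7, 32.5 and 30.9 CPM (−1.58 ± 0.09, adjusted p = 3.24e-11). The libraries of these genes did not overlap. In the TFE3 KO the mean levels of Ccdc8, Lsp1 and Ccl5 were 0.0499, 0.320 and 41.3 CPM, also under those of the parental cells. Low levels of these 3 genes were thus not particular to the TFEB KO. Fewer than 4 reads in each library of the TFEB KO were left for 7 of the 71 genes. Lhfpl4 and Ddit4l had none at all and were at least 9.49-fold and 8.43-fold lower, with 3 reads per library as the floor. B4galt2, a galactosyltransferase, was at 2.72, 2.05 and 3.28 CPM in the parental cells, with at most 3 reads in a library of the TFEB KO; 17.4% of the end of its transcripts is shared with Ccdc24.

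Among the 23 upregulated genes, Prss35, which encodes a serine protease-like protein, had no read in any parental library and 7.67, 7.45 and 9.02 CPM in the TFEB KO, at least 60.2-fold higher with 3 reads per library as the floor. S100a4, which encodes a calcium-binding protein tied to cell motility and metastasis, had 36.7, 37.5 and 39.1 CPM and then 148, 135 and 135 CPM (1.85 ± 0.09, adjusted p = 2.08e-12, limma). S100a6, its neighbour on chromosome 3, rose from 32.8, 31.1 and 34.5 CPM to 85.2, 88.5 and 77.2 CPM (1.32 ± 0.09, adjusted p = 3.56e-10). All libraries of the TFEB KO lay above those of the parental cells for these genes, and 42.1% of the end of S100a4 is shared with the overlapping gene model Gm42674. Sgk1, a kinase induced by glucocorticoids and growth factors, rose from 8.93, 9.37 and 10.7 CPM to 24.9, 43.9 and 31.7 CPM (1.66 ± 0.21). Clu, the gene of the extracellular chaperone clusterin, rose from 26.6, 31.2 and 21.7 CPM to 88.8, 67.7 and 74.9 CPM (1.51 ± 0.15). Smaller rises were those of the cell adhesion gene Nfasc (1.49), the small GTPase Rab7b of late endosomes (1.32), the collagen chaperone Fkbp10 (1.25), the glutathione transferase Gsta4 (1.23) and Oca2, a melanosomal transporter (1.16). Bmyc had no read in 2 parental libraries and 0.36 CPM in the third, and 2.02, 3.88 and 2.41 CPM in the TFEB KO. St6gal1, at 1.05, was the only upregulated gene without an adjusted p under 0.05 (0.052).

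Of the S100 proteins, galectins and annexins, 19 were measured, 3 rose and 4 fell, where 2.25% of all genes were higher and 2.59% lower. Lgals1, the galectin that rose, had 1828, 2103 and 2018 CPM and then 2678, 2700 and 2706 CPM (0.44 ± 0.11). Lgals3 fell from 466, 475 and 462 CPM to 343, 296 and 339 CPM (−0.52 ± 0.11), and Lgals9, Lgals8 and Lgals3bp, the last a secreted partner of galectin-3, fell by 0.54, 0.58 and 0.48 on the log2 scale. The list was thus divided, with no overlap between the lines for the 7 genes; without both libraries that lay apart 2 rose and 3 fell.

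Lysosomal and autophagy genes, the textbook targets of TFEB, mostly did not pass the test. The same held for all genes, of which 2.25% were higher and 2.59% lower at an adjusted p under 0.05. Of 51 lysosomal hydrolases and activators 2 rose and 3 fell (median 0.06), and the 95% interval lay within 0.5 on the log2 scale for 28 and within 1 for 50. Gla, the alpha-galactosidase, fell from 14.8, 13.6 and 18.7 CPM to 7.51, 7.31 and 8.84 CPM (−0.90 ± 0.16, adjusted p = 0.000997). Hgsnat, which acetylates heparan sulfate, fell by 0.49 and the aspartylglucosaminidase Aga by 0.48 on the log2 scale. The galactocerebrosidase Galc (0.48) and cathepsin C (Ctsc, 0.61) rose. Summed over the list, the level was 4196 to 4327 CPM in the parental libraries and 4364 to 4410 CPM in the TFEB KO. Cathepsin D (Ctsd), with 623, 652 and 579.5 CPM and then 846, 693.5 and 830.1 CPM, had an adjusted p of 0.093 (limma). Of 43 lysosomal membrane proteins only Mfsd12, a cysteine importer of melanosomes and lysosomes, changed (−0.71), and all 43 intervals lay within 1. Gpnmb (−0.27 to 0.21) and Lamp1 (−0.22 to 0.11) had intervals around 0.

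None of the 17 measured subunits of the V-ATPase, the proton pump of lysosomes, passed the test, where 2.25% of all genes were higher and 2.59% lower. Their intervals all lay within 1. None of the 16 genes of FLCN, the Rag GTPases and the Ragulator did either, which control the site of TFEB in the cell and include known MITF family targets, such as Flcn (−0.63 to 0.34), Rragd (−0.29 to 0.39) and Fnip2 (−0.40 to 0.23). Of 45 core autophagy genes 3 rose and none fell: Atg9a, the lipid scramblase of forming autophagosomes (0.51), Plekhm1, an adaptor of their fusion with lysosomes (0.47), and Map1lc3b, which encodes LC3B (0.36). The end of Atg9a shares 37.6% with the gene model Gm29253 and that of Map1lc3b up to 15.2% with another. Among 13 cargo receptors Bnip3, a mitophagy receptor, rose from 44.6, 55.0 and 52.3 CPM to 171, 66.8 and 86.4 CPM (0.97 ± 0.24), and Sqstm1, which encodes p62, was at −0.23 (−0.41 to −0.04, adjusted p = 0.171). Of 29 genes of mTORC1 and its regulators Rheb, its activating GTPase, fell (−0.56 ± 0.14). Of 13 genes of mitochondrial biogenesis Ppargc1a, which encodes PGC-1α, rose by 0.44. With only the 6 libraries in the fit none of the rises among hydrolases and autophagy genes passed, 2 of the 3 falls among hydrolases did, and Mfsd12 did not. Without both libraries that lay apart, none of the hydrolases rose and 3 fell, and 2 core autophagy genes rose.

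**Figure D3:**
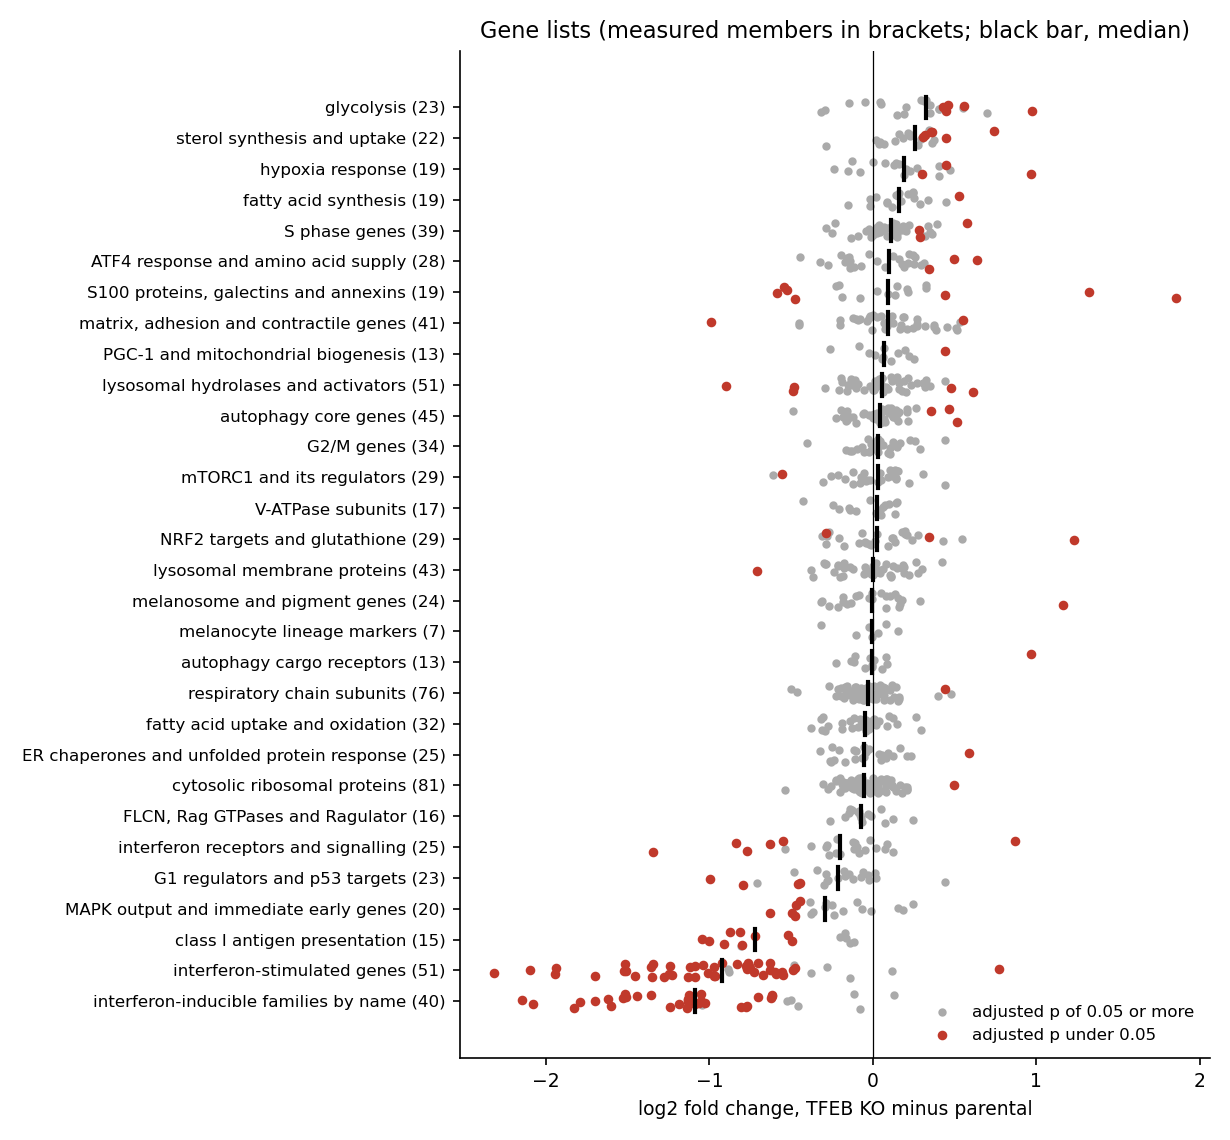
Log2 fold changes of the measured members of each list with at least 5 of them (number in brackets), with red points at an adjusted p under 0.05 and a black bar at the median. The interferon lists lie at the bottom with medians of −0.92 and −1.09, class I presentation at −0.72, the lysosomal and autophagy lists around 0 and glycolysis at the top. Both interferon lists share genes, and the list of families by name was drawn up after the values had been seen.

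Glucose and sterol metabolism had small rises. At an adjusted p under 0.05, 2.25% of all genes were higher and 2.59% lower. Of 23 glycolysis genes 5 rose and none fell (median 0.32), also without both libraries that lay apart. Slc16a3, which exports lactate, rose from 99.8, 100.3 and 95.9 CPM to 255, 149.7 and 192.5 CPM (0.97 ± 0.14, adjusted p = 9.34e-05). Ldha, which makes lactate, rose from 1235, 1321 and 1449 CPM to 1765, 1969 and 1779 CPM (0.46 ± 0.08), and the kinases Pfkl (0.56), Hk2 (0.45) and Pkm (0.43) rose with it. The libraries of these 5 genes did not overlap between the lines. Of 22 genes of sterol synthesis and uptake 6 rose and none fell (median 0.26), led by Mvd, the mevalonate decarboxylase (0.74 ± 0.19), with Fdft1 (0.45), Fdps (0.36), Sqle (0.36), Hmgcs1 (0.32) and Msmo1 (0.31). With only the 6 libraries in the fit 1 glycolysis gene and no sterol gene passed, and without both libraries that lay apart 2 sterol genes did. Of 19 hypoxia genes Bnip3, Ndrg1 (0.45) and Hif1a (0.30) rose, and of 19 genes of fatty acid synthesis Me1, the malic enzyme (0.53), while none of 32 genes of fatty acid oxidation passed; without both libraries that lay apart 2 hypoxia genes and no gene of fatty acid synthesis rose. Of 28 genes of the ATF4 response Nupr1 (0.64), Chac1 (0.50) and Slc38a2 (0.34) rose, and none did without both libraries that lay apart, and of 25 genes of the unfolded protein response Herpud1 rose (0.59).

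Cdkn1a, which encodes the cell cycle inhibitor p21, fell from 789, 822.5 and 768 CPM to 432, 369 and 390.2 CPM (−0.999 ± 0.10, adjusted p = 5.7e-07, limma). Of the 23 measured G1 regulators and p53 targets it was joined by Trp53inp1 (−0.79), the p53 ligase Mdm2 (−0.46) and cyclin D1, Ccnd1 (−0.44), and none rose. Trp53 itself was at −0.17 (−0.57 to 0.23). Among 20 genes of MAPK output 5 fell and none rose, namely the feedback inhibitor Spry2 (−0.63), the AP-1 subunits Jun (−0.49) and Fosl2 (−0.47), Phlda1 (−0.47) and Ccnd1, which stands on both lists. The lists of this paragraph stand beside shares of 2.25% higher and 2.59% lower over all genes. Of 39 S phase genes Rrm2, the ribonucleotide reductase subunit (0.58), Mcm3 (0.29) and Cdt1 (0.28) rose and none fell, and none of 34 G2/M genes passed. Of 41 genes of matrix, adhesion and contraction, Col1a2 rose (0.55) and Fscn1, which bundles actin in protrusions, fell from 26.8, 29.9 and 22.97 CPM to 11.3, 12.5 and 14.8 CPM (−0.99 ± 0.17). These are 2.44% of the list each way, near the shares over all genes. Of 29 NRF2 targets Gsta4 and Pgd (0.34) rose and Gpx1 (−0.28) fell. Of 24 melanosome genes only Oca2 passed. Without both libraries that lay apart, 4 genes of MAPK output fell, 2 S phase genes rose, and 1 NRF2 target rose and none fell.

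Some small rises lay together on the genome. Over 9340 placed genes that averaged at least 5 CPM, the median log2 fold change was computed in 185 windows of 10 Mb along GRCm39 with at least 20 genes, and in 8 of them it was at least 0.2 from that of all genes. Of these 4 lay on chromosome 8 between 80 and 130 Mb. The window from 110 to 120 Mb between them had a median of 0.16 and was not among the 8. The 4 windows held 241 genes with a median of 0.23, of which 43 were higher at an adjusted p under 0.05 and none lower. They held 18.9% of the 228 higher genes with a position, but 2.58% of these 9340 genes. As the windows were chosen by the fold changes of this same contrast, an excess of higher genes in them was built in. The ribosomal protein gene Rpl13 (0.50 ± 0.09) and the cytochrome c oxidase subunit Cox4i1 (0.44 ± 0.10), the only genes of 81 ribosomal proteins and 76 respiratory chain subunits to pass, lie there; without both libraries that lay apart no respiratory chain subunit passed. Against the parental cells the medians of these windows were 0.22 to 0.47 in the TFEB/TFE3 DKO, −0.05 to 0.0038 in the TFE3 KO, 0.06 to 0.19 in the MITF KO and 0.26 to 0.32 in the MITF/TFE3 DKO, which both have TFEB, and of the lines that lack it the MITF/TFEB DKO had −0.50 to 0.12 and the TKO −0.46 to 0.20. The part of copy number or of a shared clone was not tested. A single upregulated gene, Zdhhc15, and a single downregulated gene, Rsad2, lay in a window counted as shifted. Some called genes, such as Ifi44 and Pak3, lay in no tested window, so that their surroundings were not assessed.

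The loss of TFEB was also measured in cells without TFE3, without MITF and without both, in libraries that the first contrast did not use. Of the 23 genes upregulated in the TFEB KO, 16 were higher and none lower in the TFEB/TFE3 DKO than in the TFE3 KO at an adjusted p under 0.05, where 14.5% of all genes were higher and 14% lower. On the loss of TFEB without MITF 9 were higher and 4 lower (25.1% and 23.9% of all genes), and without MITF and TFE3 9 were higher and 6 lower (26.6% and 24.2%). S100a4, S100a6, Ackr3, a scavenging chemokine receptor, and Apbb1ip, an adaptor of integrin activation, were higher in each of the 4 contrasts, and with Tfeb, which was lower in each, they were the only called genes to move one way in all of them. S100a4 rose from 33.5 ± 2.08 to 202 ± 29.4 CPM (SD, n = 3) on the loss of TFEB without TFE3, from 72.2 ± 2.88 to 476 ± 34.1 CPM without MITF and from 91.2 ± 9.22 to 463 ± 11.2 CPM without both. Its log2 fold changes of 2.55, 2.7 and 2.33 were larger than the 1.85 of the TFEB KO, and each difference passed the test. Prss35 had 9.01 CPM in the TFEB/TFE3 DKO and at most 0.031 CPM on average in all lines other than this and the TFEB KO.

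The direction of the 71 downregulated genes differed between the other contrasts. Without TFE3 29 of them were higher on the loss of TFEB and 2 lower, without MITF 52 were higher and 9 lower, and without MITF and TFE3 6 were higher and 57 lower. The difference between the contrasts passed the test for 67, 66 and 56 of the 71 genes, against 12.4%, 35.1% and 37.7% of all genes. The 71 genes were chosen by their fall in the first contrast, whose values enter each difference. A larger share than among all genes is thus in part built in. Ifit3 shows the pattern. It fell from 777 to 201 CPM between the parental cells and the TFEB KO, the TFE3 KO had 233 CPM against 305 CPM with TFEB lost as well, the MITF KO had 8.96 CPM against 713 CPM with TFEB lost as well, and the MITF/TFE3 DKO had 713 CPM against 19.6 CPM in the TKO. Rsad2 had the same order of lines by and large, with 979 CPM in the parental cells, 404 in the TFEB KO, 18.9 in the MITF KO and 1026 in the MITF/TFEB DKO. On the list of 51 interferon-stimulated genes the median log2 fold change on the loss of TFEB was −0.92 in the TFEB KO, 0.38 without TFE3 (25 higher, 1 lower), 4.84 without MITF (48 higher, 1 lower) and −2.94 without MITF and TFE3 (none higher, 48 lower). As the TFEB KO is 1 clone, the loss of a factor and the history of the clone cannot be told apart.

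**Figure D4:**
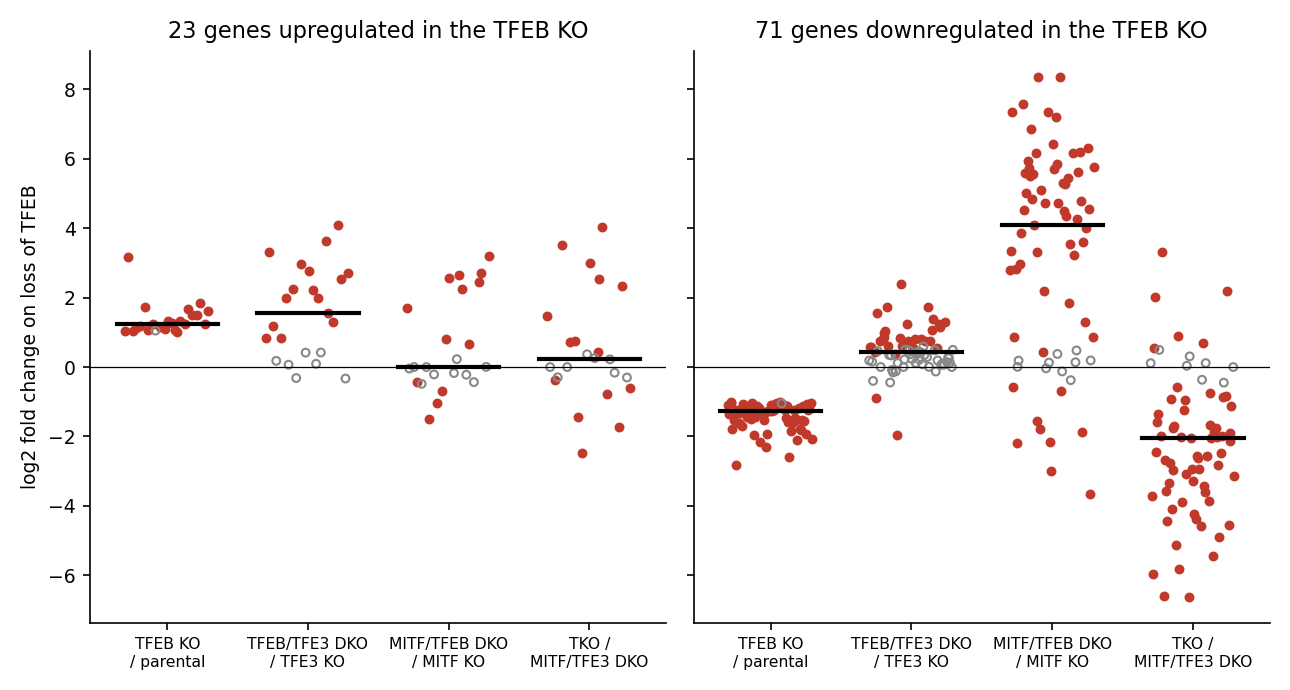
Log2 fold changes on the loss of TFEB of the 23 upregulated (left) and the 71 downregulated genes (right) in the 4 pairs of lines, with filled red points at an adjusted p under 0.05, open points otherwise and a bar at the median. The first column of each panel shows the values by which the genes were chosen; on the right the points lie mostly above 0 without MITF and mostly below 0 without MITF and TFE3.

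The TFEB KO was also set beside the TFE3 KO, the single KO of the nearest family member. With an adjusted p under 0.05 and a fold change of 2 or more, 111 genes were higher in the TFEB KO (0.924% of all genes) and 23 lower (0.192%). The last count hung on single libraries, as 117 genes were lower without TFE3 KO replicate 1 and 128 without TFEB KO replicate 2. The myelin gene Mbp had 106 ± 16.4 CPM (SD, n = 3) in the TFEB KO and 6.40 ± 1.28 in the TFE3 KO, the tubulin Tuba4a 13.1 ± 2.41 and 0, and the deubiquitinase Usp11 13.95 ± 5.44 and 0.125 ± 0.0340. The parental cells had 69.2, 12.5 and 8.47 CPM of these, closer to the TFEB KO. Pak3, a kinase of the cytoskeleton, had 0.0762 ± 0.132 CPM in the TFEB KO and 10.5 ± 1.64 in the TFE3 KO, and the transcription factors Creb5 and Hlf 6.23 ± 0.632 and 1.06 ± 0.662 against 23.4 ± 2.12 and 5.38 ± 0.300. On the interferon list 4 of 51 genes were higher and 1 lower in the TFEB KO at an adjusted p under 0.05 (6.82% and 3.81% of all genes), with a median of 0.04. Ifit3, Ifi44 and Oasl2 had mean levels of 233, 22.6 and 24.2 CPM in the TFE3 KO, also under those of the parental cells. Low levels of these interferon genes were thus not particular to the TFEB KO. Of 23 glycolysis genes 8 were higher in the TFEB KO than in the TFE3 KO and none lower.

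**Figure D5:**
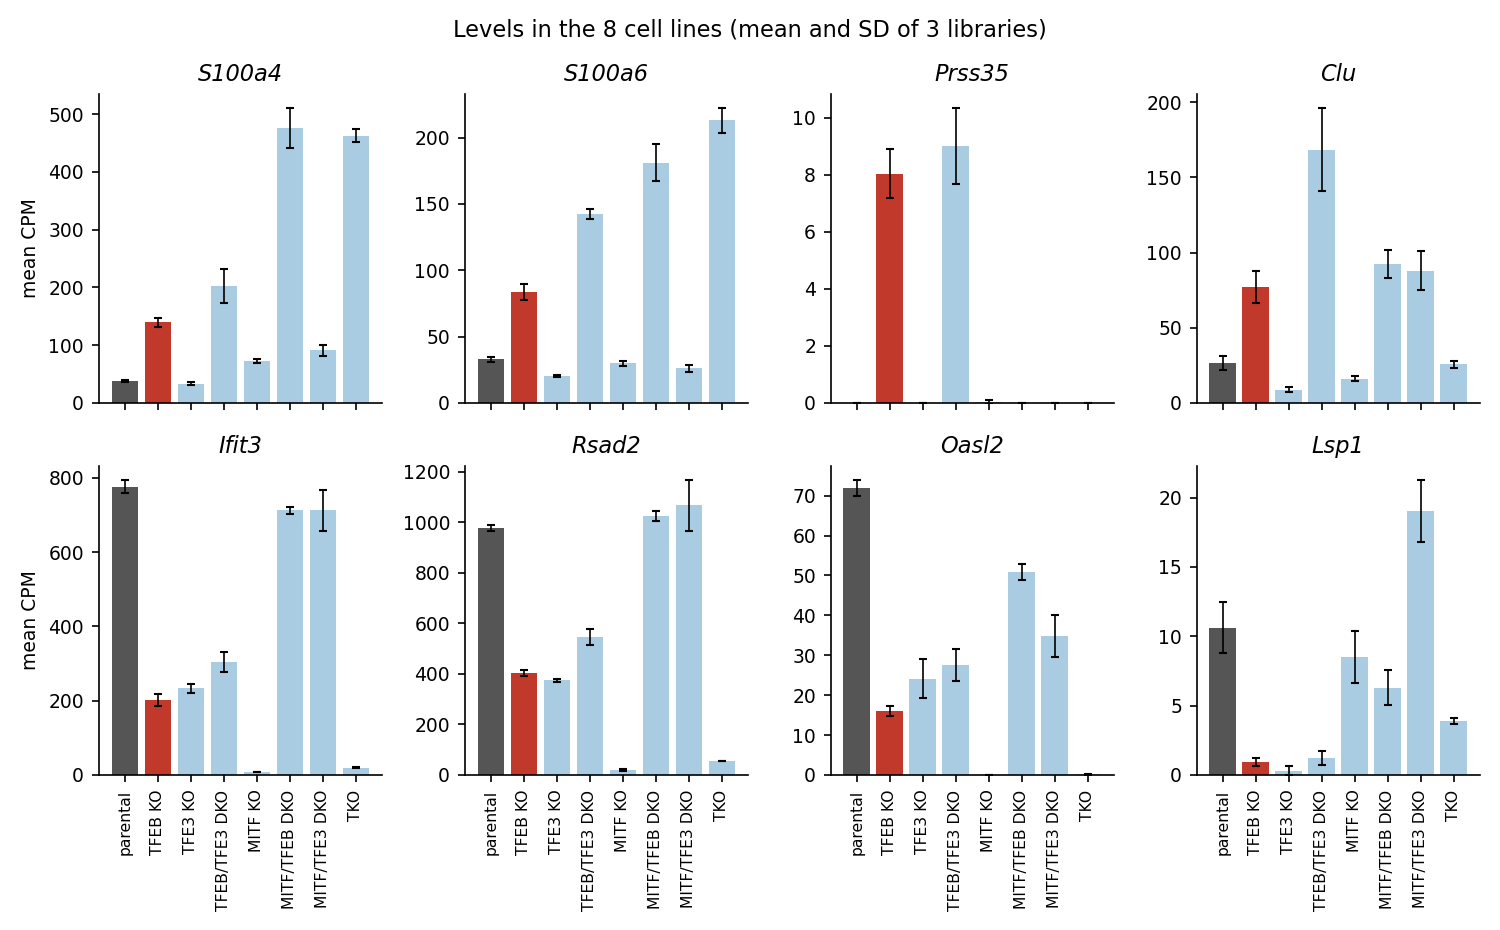
Mean CPM and SD of 3 libraries in the 8 lines for 4 upregulated (top) and 4 downregulated genes (bottom), with the parental cells in grey, the TFEB KO in red and the other lines in blue; the axes start at 0 and differ between genes. S100a4 and S100a6 are higher in every line without TFEB than in its partner with TFEB, whereas Ifit3, Rsad2 and Oasl2 are near 0 in the MITF KO and the TKO.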

How the data were processed

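Total RNA of each line was sequenced with QuantSeq Forward, a poly(A)-primed kit for the 3′ end of transcripts. The authors trimmed reads with Trim Galore 0.6.5 and cutadapt 2.10, checked them with FastQC 0.11.9, mapped them with STAR 2.7.8a to mm39 and normalized with edgeR, and they deposited TMM-scaled CPM, a normalized signal that is never negative, for 12010 genes. How reads were counted, with which annotation and gene filter, is not given in the sources used here. The values were expected to be plain CPM; their totals differ between libraries, as TMM scaling gives, and the test was kept. Columns of other samples numbered 0. Steps between values gave whole reads for 99.9% of values (lowest library 99.8%), within 0.01 read.

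The comparison used log2(CPM + 1) in limma 3.58.1 with a variance trend, and 1 fit held the 24 libraries (16 residual degrees of freedom); adjusted p-values follow Benjamini and Hochberg over all genes. The study's threshold was used for calls, an unadjusted p under 0.05 and a fold change of 2 or more. "Rose" and "fell" refer to an adjusted p under 0.05. The fit was tested on simulated data. Intervals are 95% from limma, and with 3 libraries a line their number limits the precision. No fitted fold is given for genes with 3 reads or fewer in all libraries of a line. Alternatives were edgeR 4.0.16 on the reads, other pseudocounts, scalings and filters, a replicate block and left-out libraries. R 4.3.3, Python 3.11.15 and matplotlib 3.10.9 were used.

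The members, gene lists and tests were chosen with earlier results of these data known. Named by rule were the MITF family, the 12 largest rises and falls, up to 4 members of each list by adjusted p (or 2 by level), called genes that moved one way (up to 10) or oppositely (up to 6) in the other contrasts, and the 5 largest differences each way from the TFE3 KO, 122 genes in all; other genes were chosen after their values were seen. Some genes that the rule names are not reported here.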

Additional observations from a re-analysis of the deposited data

Results flagged for a closer look

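The effect of TFEB loss differed between cells with and without the related factors, by limma's test of the difference between contrasts. Of the 94 genes called in the TFEB KO, the difference from the effect without TFE3 passed an adjusted p under 0.05 for 80, that from the effect without MITF for 87 and that from the effect without MITF and TFE3 for 75. Over all genes these differences passed for 12.4%, 35.1% and 37.7%. Of the 71 downregulated genes, 29 were higher on the loss of TFEB without TFE3 and 52 without MITF, where 14.5% and 25.1% of all genes were higher. The genes were called in the first contrast, whose values enter each difference. No group has more than 3 libraries, so that single libraries were not tested as outliers.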

How the results depend on the processing

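Calls at a fold of 2 rest on the pseudocount, since many genes have few reads. With a pseudocount of 0.25, 65 genes were upregulated and 144 downregulated, and with 5, 8 and 32; edgeR on the reads gave 117 and 192. In that order the called genes that moved the same way on TFEB loss numbered 40, 8 and 53 without TFE3, 52, 5 and 71 without MITF, and 122, 32 and 144 without both. Differences from the TFE3 KO were 214, 36 and 229 genes higher and 55, 5 and 53 lower, and 131, 35 and 147 called genes differed in effect with and without TFE3. With only the libraries compared, 59 genes were higher and 146 lower at an adjusted p under 0.05, and 13 lower than in the TFE3 KO. Without both libraries that lay apart (an alternative chosen after seeing the data) 135 were higher, 191 lower and 30 moved the same way without TFE3. Without the genes in shifted windows, also chosen after seeing the data, 22 genes were upregulated, 70 downregulated, 217 higher and 299 lower. With each library left out in turn, upregulated genes numbered 23 to 32, downregulated 72 to 81, higher 143 to 261 and lower 215 to 315. Genes that moved the same way numbered 18 to 31 without TFE3 (31 without TFEB KO replicate 2), 17 to 23 without MITF and 65 to 73 without both; those higher than in the TFE3 KO 104 to 138, those lower 17 to 128, and those whose effect differed without TFE3 76 to 87. The causes were not tested. Of 87 named genes with an adjusted p under 0.05, 50 kept it under every alternative, 36 lost it with only the libraries compared, and none turned in direction.

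The replicate numbers did not pair the libraries: deviations of same-numbered libraries correlated at 0.22, −0.46 and −0.41 over genes. Fitting the replicate block left 23 upregulated and 71 downregulated genes, and 274 were higher and 312 lower at an adjusted p under 0.05. Depth limits genes with few reads: 3 downregulated genes had no read in the TFEB KO, and floors of 3 reads cover counting error only, whereas the intervals rest on the spread between libraries.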
